A study of Mus musculus with 2 samples.

Results

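The heat-shock chaperone genes *Hspa1a*, *Hspa1b*, *Hspb1*, *Dnajb1*, *Hsp90aa1*, *Hspa8*, *Hsp90ab1*, *Hspd1* and *Hspe1* were examined in sorted cells of untreated and imiquimod-treated mouse dermis. They were chosen by symbol as a family, make up 9 of the 31053 genes counted, and all 9 were found in both libraries. Live CD45-negative, tdTomato-positive cells had been sorted from the dermis of PdgfraDreER-tdTomato mice on a C57BL/6 background at 8 weeks of age, from untreated skin (UT) and from skin given imiquimod (IMQ) for 7 days. In these mice a Dre recombinase driven by *Pdgfra* switches on tdTomato once tamoxifen is given, so that fibroblasts and other cells that expressed *Pdgfra* at that time carry the label in both groups. Imiquimod, a Toll-like receptor agonist, brings on a psoriasis-like inflammation of mouse skin. With 1 library per group, the variation between mice is unknown and nothing was tested. Intervals are exact 95% intervals of the counts and hold counting error only.

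Each library was read in pools of barcodes, the droplet tags that stand for single cells. Barcodes with at least 200 detected genes were split by *Malat1*, a long non-coding RNA that stays in the nucleus. Barcodes with at least 10 *Malat1* unique molecular identifiers (UMIs) are called Malat1-rich and those with fewer Malat1-poor. UT held 39 Malat1-rich barcodes with 342550 UMIs and 1312 Malat1-poor barcodes with 1154372 UMIs. IMQ held 11 Malat1-rich barcodes with 106480 UMIs and 1415 Malat1-poor barcodes with 1096346 UMIs. The median Malat1-rich barcode carried 3648 UMIs in UT and 5689 in IMQ, against 698 in the Malat1-poor pool of either library. Few barcodes lay near the split: 3 UT and 2 IMQ barcodes had 5 to 9 *Malat1* UMIs, and 1 and 2 had 10 to 19. A single barcode sequence occurred in both libraries. A further 64 UT and 3621 IMQ barcodes had fewer than 200 genes. They were used only as a comparison for shares and levels and in the results flagged for a closer look.

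Fibroblast marker RNA was not spread evenly across the pools, and the tdTomato label itself was not examined. In the Malat1-poor pool 7 fibroblast marker genes (*Col1a1*, *Col1a2*, *Col3a1*, *Dcn*, *Lum*, *Sparc* and *Pdgfra*) took a median of 8.88% of a barcode's UMIs in UT and 15.4% in IMQ. In the Malat1-rich pool that median was 0.176% and 0.147%, and only 8 of 39 UT and 2 of 11 IMQ barcodes reached 5%. *Pdgfra*, whose expression sets the label, alone went the other way, on 18 to 36 UMIs per pool. It stood at 55.5 CPM (counts per 1000000 UMIs) in UT and 169 CPM in IMQ Malat1-rich barcodes. In the Malat1-poor barcodes it stood at 31.2 and 31.0 CPM. In addition, 4 UT barcodes, with 180163 UMIs together, gave at least 0.5% of their UMIs to 6 keratinocyte markers, and 1 of them alone held 36.3% of the UMIs of its pool. No IMQ barcode did so, and *Krt5*, *Krt14*, *Krt1*, *Krtdap* and *Dsp* were at 0 in the 11 IMQ Malat1-rich barcodes. Among the 7 leukocyte markers the IMQ Malat1-rich pool held 0 UMIs and the UT pool 18. Endothelial markers took 166 CPM of the UT and 733 CPM of the IMQ Malat1-rich pool, and mural markers 20.4 and 65.7 CPM. Their part in the differences below was not tested. Values that rest on the Malat1-rich pool are for the whole pool unless stated. The main ones are therefore also given without the keratinocyte-marked barcodes, a division made after the data had been seen. All comparisons between pools or libraries set summed UMIs side by side, in which fewer cells of a type and less RNA per cell cannot be told apart.

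Chaperones bind unfolded or unfinished proteins and help them reach or regain their shape. Under heat or other protein stress, heat-shock factor 1 (HSF1) gathers on heat-shock elements, alternating GAA and TTC letters spaced by pairs of bases, and turns on the inducible chaperones within minutes. Here *Hspa1a* and *Hspa1b*, which encode the inducible HSP70, *Hspb1*, the small heat-shock protein HSP27 known from keratinocytes and muscle, *Dnajb1*, a J-domain partner that hands clients to HSP70, and *Hsp90aa1*, the stress-responsive cytosolic HSP90, were taken as inducible. *Hspa8*, the HSC70 that folds new proteins and uncoats vesicles in unstressed cells, *Hsp90ab1*, the steadily made cytosolic HSP90, and *Hspd1* and *Hspe1*, which form the mitochondrial chaperonin and its lid, were taken as constitutive. Enzymatic dissociation of tissue is known to induce many heat-shock and immediate early genes. These cells had been through an overnight digestion in the cold that separated the epidermis, an enzyme digestion to single cells and a sort.

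The upstream regions of the inducible HSP70 pair are shown because both genes were lower in IMQ than in UT in both the Malat1-rich and the Malat1-poor pool. *Hspa1a* (chr17:34969190-34972156, minus strand) and *Hspa1b* (chr17:34956436-34959238, minus strand) are single-exon genes of the major histocompatibility region, 9951 bases apart in the GENCODE M21 annotation of GRCm38. RefSeq windows of 300 bases, 250 before to 50 after a start site on GRCm38.p6, were found for 6 of the 9 genes, in 8 windows. *Hsp90aa1*, *Hspa8* and *Hsp90ab1* had none. The window of *Hspa1a* (chr17:34972107-34972406, minus strand) is printed with its only heat-shock element match in capitals:
Hspa1a window: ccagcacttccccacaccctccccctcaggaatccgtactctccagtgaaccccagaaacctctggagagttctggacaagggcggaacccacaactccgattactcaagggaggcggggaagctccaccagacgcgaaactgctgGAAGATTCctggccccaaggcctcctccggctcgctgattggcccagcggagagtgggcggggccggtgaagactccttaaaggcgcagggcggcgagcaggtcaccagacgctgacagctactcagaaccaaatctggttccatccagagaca
The window of *Hspa1b* (chr17:34959189-34959488, minus strand) was identical at 296 positions and differed at 4. Counted from the 5′ end of the window, with the base of *Hspa1a* first, these are C44T, T47C, T249G and C276T, none of which touches the match at positions 147 to 154.

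A match was either GAANNTTC or TTCNNGAA, 2 alternating units, both of which read the same on either strand. Only these exact letters were sought. Units with a differing base were neither marked nor counted, so a window may hold longer elements than those shown. Stretches around the matches are printed for the genes that held one, with the matched run in capitals:
Hspa1a and Hspa1b, 104 to 97 bases before the start site: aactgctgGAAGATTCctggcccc
Hspb1, 117 to 110 bases before: caacaagaGAAGTTTCcagatggg
Hspb1, 97 to 90 bases before: tgggggcaGAACCTTCctggcccc
Hspe1, 89 to 72 bases before: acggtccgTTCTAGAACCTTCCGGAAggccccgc
Hspd1, 144 to 127 bases before its second start site: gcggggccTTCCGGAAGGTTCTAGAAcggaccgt
The runs of *Hspe1* and *Hspd1* are the same 18 bases read from opposite strands, since these genes lie head to head on chromosome 1. By exact letters that run holds 4 units, whereas those of *Hspa1a*, *Hspa1b* and *Hspb1* hold 2 each. Both windows of *Dnajb1*, and the first window of *Hspd1*, held no such letters. Of all 32851 windows in the table, 15.1% held at least 2 units in a row, 0.603% at least 3 and 8 windows (0.0244%) at least 4. The 5 genes with a match include the HSP70 pair, whose levels differed widely between the pools. They also include the mitochondrial pair, whose levels did not differ between the UT pools beyond counting error. In IMQ the log2 difference, Malat1-rich over Malat1-poor, was 1.52 (0.46 to 2.47) for *Hspd1* and -0.58 (-1.41 to 0.14) for *Hspe1*. Whether the matches bear on these levels was not tested.

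Inducible chaperone transcripts were concentrated in the Malat1-rich pool of UT. Together the 5 inducible genes made 8600 CPM (interval 8292 to 8916) there, against 232 CPM (205 to 262) in the Malat1-poor pool of the same library. In IMQ they made 1813 CPM (1566 to 2087) in the Malat1-rich and 114 CPM (94.9 to 136) in the Malat1-poor pool. The 4 constitutive genes varied far less, at 4913 CPM (4681 to 5154) and 2138 CPM (2054 to 2224) in UT and at 5644 CPM (5202 to 6114) and 2102 CPM (2017 to 2189) in IMQ. The UT Malat1-rich pool without its keratinocyte-marked barcodes held 6060 CPM of the inducible and 3652 CPM of the constitutive genes. Because the assay counts the 3′ end of each transcript once, levels of different genes are compared here as CPM without division by length.

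**Figure D1:**
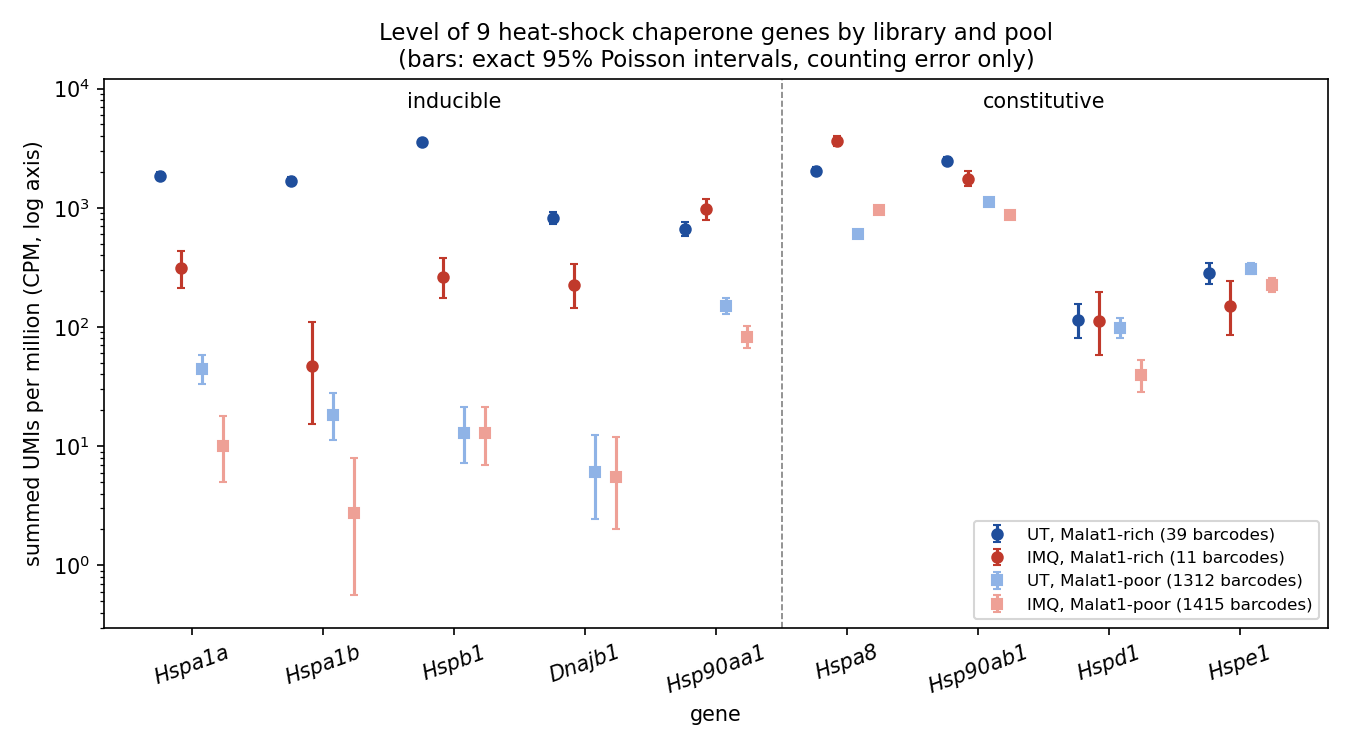
Summed UMIs as CPM on a log axis for each of the 9 genes (x axis) in the 2 libraries and 2 pools, with exact 95% Poisson intervals. *Hspa1a*, *Hspa1b*, *Hspb1* and *Dnajb1* spread over orders of magnitude between the pools, from 3594 to 13.0 CPM for *Hspb1* in UT, while the points of *Hspd1* and *Hspe1* stay close together.

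Among the inducible genes, *Hspa1a* stood at 1836 CPM in UT Malat1-rich barcodes, 309.9 in IMQ Malat1-rich, 44.2 in UT Malat1-poor and 10.0 in IMQ Malat1-poor barcodes. *Hspa1b* stood at 1682, 47.0, 18.2 and 2.74 CPM in the same order, the last from 3 UMIs. Both genes were highest in UT Malat1-rich barcodes and lowest in IMQ Malat1-poor barcodes, and neighbouring pools in this order had intervals that did not overlap for *Hspa1a*, whereas for *Hspa1b* the middle pools, at 15.3 to 109.6 and 11.3 to 27.8 CPM, overlapped. *Hspb1* stood at 3594, 263, 13.0 and 12.8 CPM. *Dnajb1* stood at 820, 225, 6.06 and 5.47 CPM. In UT Malat1-rich barcodes without the keratinocyte-marked ones, *Hspb1* stood at 918 CPM and *Dnajb1* at 98.5 CPM. That *Dnajb1* level is under the 225 CPM of the IMQ Malat1-rich pool. For these genes the Malat1-poor pools of UT and IMQ rested on 15 and 14 UMIs and on 7 and 6 UMIs, and their intervals overlapped. *Hsp90aa1* was the least pool-dependent of the inducible genes, at 669 CPM in UT and 967 CPM in IMQ Malat1-rich barcodes and at 151 and 83 CPM in the Malat1-poor pools.

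Of the constitutive genes, *Hspa8* was highest in IMQ Malat1-rich barcodes at 3625 CPM, followed by 2038 CPM in UT Malat1-rich, 964 CPM in IMQ Malat1-poor and 607 CPM in UT Malat1-poor barcodes. None of these intervals overlapped. *Hsp90ab1* stood at 2478 CPM in UT and 1756 CPM in IMQ Malat1-rich barcodes and at 1125 and 873 CPM in the Malat1-poor pools. The UT Malat1-rich value was 1503 CPM without the keratinocyte-marked barcodes. *Hsp90ab1* was the most abundant of the 9 genes in UT Malat1-poor barcodes and came second to *Hspa8* in IMQ Malat1-poor barcodes. *Hspd1* stood at 114, 113 and 97.9 CPM in UT Malat1-rich, IMQ Malat1-rich and UT Malat1-poor barcodes, values that did not differ beyond counting error, and at 39.2 CPM in IMQ Malat1-poor barcodes. *Hspe1* was the only member higher in the Malat1-poor pool of both libraries, at 283 against 308 CPM in UT and 150.3 against 225 CPM in IMQ, with overlapping intervals in each. *Hspd1* and *Hspe1* overlap on opposite strands at their starts, and 5 and 6 annotated pseudogenes carry their names, so that their counts depend on how the authors' counting handled such reads.

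Within UT, 7 of the 9 genes were at least 2-fold higher in Malat1-rich than in Malat1-poor barcodes and 0 were 2-fold lower, while 36.2% of the 8399 genes with at least 10 UMIs were 2-fold higher and 12.8% lower. Within IMQ, 7 of the 8 genes with at least 10 UMIs were 2-fold higher and 0 lower, against 49.2% and 9.92% of 6221 genes. The remaining *Hspa1b* had 5 and 3 UMIs there. The shares of all genes depended on the number of UMIs asked for. Of genes with at least 100 UMIs, 13.4% were 2-fold higher and 24.1% lower in UT, and 18.7% and 30.4% in IMQ. In UT the log2 difference between the pools was 8.11 (7.38 to 8.95) for *Hspb1*, 7.08 (6.02 to 8.41) for *Dnajb1*, 6.53 (5.90 to 7.23) for *Hspa1b* and 5.38 (4.96 to 5.82) for *Hspa1a*. It was 2.15 for *Hsp90aa1*, 1.75 for *Hspa8*, 1.14 for *Hsp90ab1*, 0.22 for *Hspd1* and -0.12 for *Hspe1*, the median gene being at 0.49. Each of the 5 inducible genes thus had a larger difference than any of the 4 constitutive genes. In IMQ the 5 inducible genes lay between 3.54 and 5.36 and the 4 constitutive genes between -0.58 and 1.91, the median gene being at 0.95. Leaving out the 4 keratinocyte-marked UT barcodes lowered *Dnajb1* to 4.02 and *Hspb1* to 6.14 and left *Hspa1a* at 5.91 and *Hspa1b* at 6.70.

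The inducible level was highest at the last step of the *Malat1* count in both libraries. The inducible sum was 220.1 CPM in the 1225 UT barcodes without a *Malat1* UMI and 411 CPM (277 to 586) in the 87 barcodes with 1 to 9. At 10 or more it was 8600 CPM, or 6060 CPM without the keratinocyte-marked barcodes. In IMQ it was 110.3, 260.5 (105 to 537) and 1813 CPM, over 1387, 28 and 11 barcodes, the middle value resting on 7 UMIs, 5 of them from 1 barcode. The constitutive sum over the same steps was 2085, 2915 and 4913 CPM in UT and 2099, 2196 and 5644 CPM in IMQ.

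The share of barcodes with any inducible UMI showed the same division at equal depth, but not every gene did so in each library. Each barcode was thinned to 400 UMIs, which left out 102 UT and 58 IMQ Malat1-poor barcodes that were shallower and no Malat1-rich barcode. An inducible UMI was then seen in 56.4% (39.6 to 72.2%) of UT Malat1-rich and 8.26% (6.78 to 9.96%) of UT Malat1-poor barcodes. In IMQ these shares were 36.4% (10.9 to 69.2%) and 3.54% (2.62 to 4.66%). *Hspa1a* was then seen in 13 of 39 UT Malat1-rich barcodes (33.3%, 19.1 to 50.2%) and in 18 of 1210 UT Malat1-poor barcodes (1.49%, 0.884 to 2.34%). Without thinning these shares were 48.7% and 2.82%. In IMQ the thinned share was 0 of 11, which allows up to 28.5% at this number of barcodes, against 6 of 1357 (0.442%), and the unthinned shares were 36.4% and 0.777%. *Hspb1* was seen after thinning in 15.4% of UT Malat1-rich and 0.413% of UT Malat1-poor barcodes. *Dnajb1* was seen in 5.13% (0.627 to 17.3%) and 0.413% (0.134 to 0.962%), with overlapping intervals.

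Of the constitutive genes, *Hspa8* and *Hsp90ab1* were seen widely in every pool. After thinning, *Hspa8* was present in 51.3% of UT Malat1-rich, 63.6% of IMQ Malat1-rich, 20.3% of UT Malat1-poor and 31.9% of IMQ Malat1-poor barcodes. *Hsp90ab1* was present in 53.8%, 45.5%, 33.7% and 27.3% in the same order. In the Malat1-poor pools, where the intervals were narrow, the share with *Hspa8* was thus higher in IMQ (29.4 to 34.5%) than in UT (18.1 to 22.7%), and that with *Hsp90ab1* was lower (24.9 to 29.7% against 31.1 to 36.5%). The mitochondrial pair was seen less often and showed no placing by pool beyond counting error for *Hspe1*, which was present in 5.13% (0.627 to 17.3%) of UT Malat1-rich and 11.6% (9.82 to 13.5%) of UT Malat1-poor barcodes, and in 9.09% (0.230 to 41.3%) and 7.59% (6.24 to 9.13%) in IMQ. *Hspd1* was present in 0 of 39 UT and 0 of 11 IMQ Malat1-rich barcodes, which allows up to 9.03% and 28.5%, and in 3.80% and 1.40% of the Malat1-poor barcodes.

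No cell type that should lack all of these genes was available as a background, and barcodes with fewer than 200 genes were used as a comparison instead. In IMQ the 7 fibroblast markers took a median of 11.4% of their UMIs, against 15.4% in Malat1-poor barcodes. They thus hold fibroblast RNA at lower depth, and a comparison with them cannot show whether a gene was expressed. Over the 3621 such IMQ barcodes, of 287 UMIs at the median, *Hspa1a* was seen without thinning in 0.138% (0.0449 to 0.322%), *Hspb1* in 0.1105% and *Dnajb1* in 0.221%. The shares in IMQ Malat1-poor barcodes, of 698 UMIs at the median, were 0.777%, 0.777% and 0.424%. Given the difference in depth, the share with *Dnajb1* in IMQ Malat1-poor barcodes was not above that of the barcodes with fewer than 200 genes. Its level, 5.47 CPM, was no higher than the 6.92 CPM found there. *Hspa1a* and *Hspb1*, at 10.0 and 12.8 CPM, stood above the 4.33 and 3.46 CPM found there, but on 14 UMIs or fewer and with overlapping intervals. In the 64 UT barcodes with fewer than 200 genes *Hspa1a*, *Hspa1b* and *Hspb1* had 0 UMIs, which at 27157 UMIs allows up to 135.8 CPM.

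**Figure D2:**
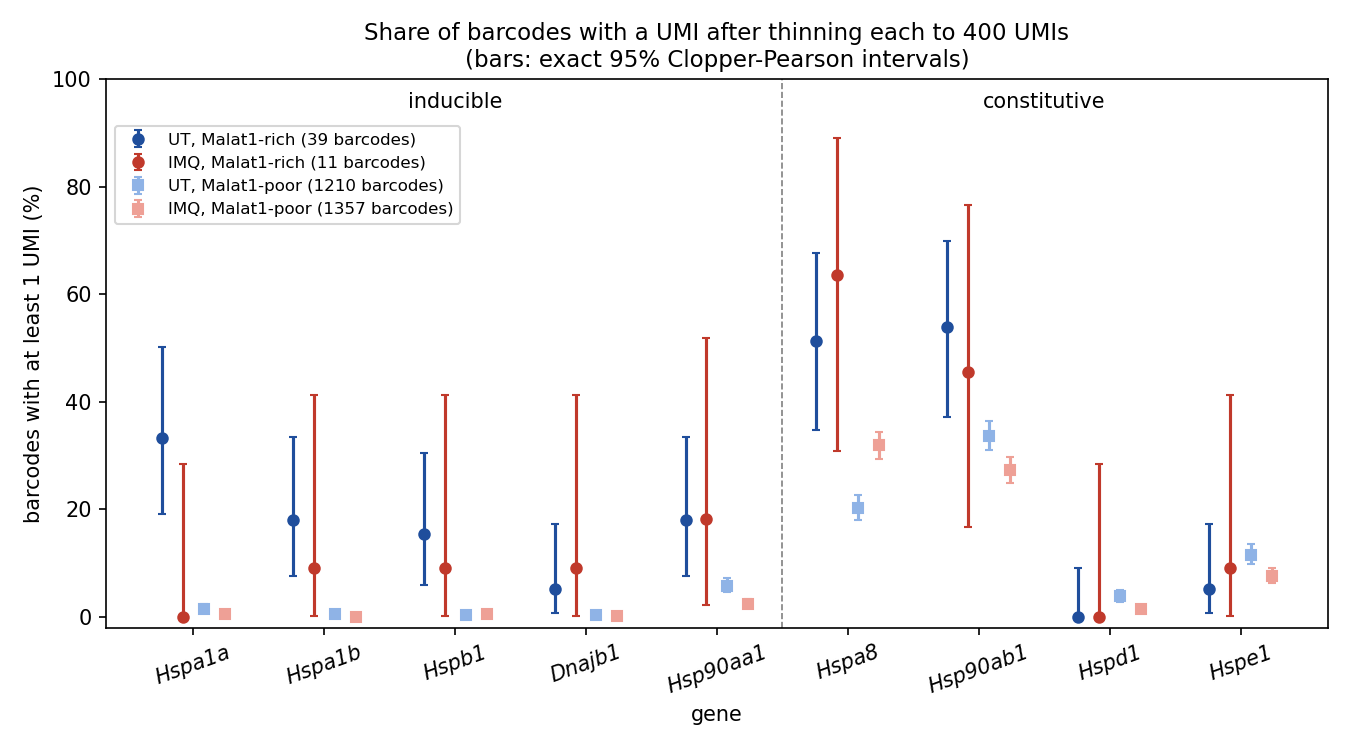
Percent of barcodes with at least 1 UMI of each gene (x axis) after thinning every barcode to 400 UMIs, by library and pool, with exact 95% Clopper-Pearson intervals. Malat1-poor barcodes sit at or under 5.79% for the 5 inducible genes, and *Hspa8* and *Hsp90ab1* are seen in 20.3% or more of every pool.

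The balance of inducible to constitutive transcripts therefore differed by pool and by library. UT Malat1-rich barcodes held 1.75 inducible UMIs per constitutive UMI (1.65 to 1.86), whereas UT Malat1-poor barcodes held 0.109 (0.0954 to 0.123). IMQ Malat1-rich barcodes held 0.321 (0.272 to 0.378) and IMQ Malat1-poor barcodes 0.0542 (0.0449 to 0.0650). The UT Malat1-rich pool was the only one in which inducible UMIs outnumbered constitutive ones, and the ratio there was 1.66 without the keratinocyte-marked barcodes. Within the HSP70 family, *Hspa1a* and *Hspa1b* together gave 1.73 UMIs per UMI of *Hspa8* in UT and 0.0985 in IMQ Malat1-rich barcodes. In the Malat1-poor pools this ratio was 0.103 and 0.0132. Within the HSP90 family, *Hsp90aa1* gave 0.270 UMIs per UMI of *Hsp90ab1* in UT and 0.551 in IMQ Malat1-rich barcodes, and 0.134 and 0.0951 in the Malat1-poor pools. By these sums *Hsp90aa1* had its largest share of the HSP90 UMIs in IMQ Malat1-rich barcodes, where the HSP70 pair had a small share of the HSP70 UMIs. That pool was not uniform. In its 2 barcodes with at least 5% fibroblast marker UMIs the HSP70 ratio was 1.25 (0.707 to 2.23) and the HSP90 ratio 1.5 (0.684 to 3.41). In the other 9 the ratios were 0.0221 and 0.486.

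The members of the HSP70 pair can be told apart in these data, because none of the 451 windows of 50 bases in the last 500 bases of *Hspa1a* occurs in *Hspa1b*, although 58.8% of such windows are shared over the whole transcript. *Hspa1a* overlaps *Gm20481* on the other strand. In UT Malat1-rich barcodes *Hspa1a* and *Hspa1b* had 629 and 576 UMIs (ratio 1.09, 0.974 to 1.23), but the ratio was 0.732 (0.606 to 0.883) in the 4 keratinocyte-marked barcodes and 1.41 (1.21 to 1.63) in the others. In UT Malat1-poor barcodes *Hspa1a* exceeded *Hspa1b* 2.43-fold (1.44 to 4.25), and in IMQ Malat1-rich barcodes 6.60-fold (2.56 to 21.7), on 33 and 5 UMIs. In IMQ, 27 of these 33 *Hspa1a* UMIs came from 1 barcode. The chaperonin lid gene *Hspe1* exceeded *Hspd1* in all 4 pools, by 2.49-fold and 1.33-fold in UT and IMQ Malat1-rich and by 3.14-fold and 5.74-fold in UT and IMQ Malat1-poor barcodes, with an interval that covered 1 in IMQ Malat1-rich barcodes (0.592 to 3.09).

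Among Malat1-rich barcodes, IMQ had less of the inducible chaperones and slightly more of the constitutive ones than UT. The inducible sum was 4.75-fold lower in IMQ (log2 ratio -2.25, -2.46 to -2.04) and the constitutive sum 1.15-fold higher (0.20, 0.06 to 0.34), so that the log2 ratio of inducible to constitutive was lower by 2.45 (interval of the difference -2.70 to -2.20). *Hspa1b* was 35.8-fold lower, *Hspb1* 13.7-fold, *Hspa1a* 5.92-fold and *Dnajb1* 3.64-fold. *Hsp90aa1*, the remaining inducible gene, was 1.45-fold higher (0.53, 0.18 to 0.87). Of the constitutive genes, *Hspa8* was 1.78-fold higher (0.83, 0.65 to 1.01), *Hsp90ab1* stood at a log2 ratio of -0.50 (-0.73 to -0.27), *Hspe1* at -0.91 (-1.78 to -0.14) and *Hspd1* at -0.01 (-1.08 to 0.95). In all, 4 of the 9 genes were at least 2-fold lower and 0 at least 2-fold higher, against 21.9% and 16.3% of the 5906 genes with at least 10 UMIs. The median log2 ratio was -0.91 over the 9 genes and -0.12 over those 5906. Without the keratinocyte-marked barcodes 3 of the 9, *Hspa1a*, *Hspa1b* and *Hspb1*, were 2-fold lower and 2, *Dnajb1* and *Hspa8*, 2-fold higher, against 24.8% and 16.5% of 4259 genes, and the median was -0.45 over the 9 and -0.20 over all.

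These Malat1-rich ratios depended on which barcodes the pools held. A single UT barcode of 124192 UMIs, led by *Krt14*, *Krt5* and *Krt15*, supplied 1756 of the 2946 inducible UMIs (59.6%), including 946 of 1231 for *Hspb1* and 237 of 281 for *Dnajb1*. Without the 4 keratinocyte-marked barcodes the log2 ratio of the inducible sum was -1.74 and that of the constitutive sum 0.63. *Hspb1* was then at -1.80, *Hspa1a* at -3.10 and *Hspa8* at 1.08, whereas *Dnajb1* turned from -1.86 to 1.19 (0.22 to 2.20) and *Hsp90ab1* from -0.50 to 0.23 (-0.06 to 0.51). In the barcodes with at least 5% fibroblast marker UMIs, 8 in UT and 2 in IMQ, the inducible sum stood at 3531 CPM in UT and 4880 CPM in IMQ (log2 ratio 0.47, 0.01 to 0.90), the opposite direction, with *Hspa1a* at 0.55 (-0.13 to 1.18). However, 1 barcode supplied 55 of the 56 IMQ and 1 other 139 of the 206 UT inducible UMIs of this class. In the barcodes with neither mark, 27 and 9, the inducible sum stood at 7477 and 1442 CPM (-2.37, -2.65 to -2.11), with 379 of the 778 UT UMIs from 1 barcode. The median barcode of this class stood at 2008 and 1505 CPM, much closer than the sums. *Hspa8* was higher in IMQ in each of these divisions, at 0.95 (0.21 to 1.65) in the fibroblast-marked and 0.88 (0.63 to 1.13) in the unmarked barcodes, and so was *Hsp90aa1*, at 1.66 (0.72 to 2.56) and 0.87 (0.35 to 1.40), though 23 of 24 *Hspa8* and 18 of 18 *Hsp90aa1* UMIs of the fibroblast-marked IMQ barcodes came from the same barcode. The part of cell type in the differences was not tested.

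Among Malat1-poor barcodes the inducible sum was again lower in IMQ, 2.04-fold (log2 ratio -1.03, -1.34 to -0.71), and the constitutive sum differed by less than counting error (-0.02, -0.11 to 0.06). Here the median gene was at -0.70, and relative to it the inducible sum was at -0.32 and the constitutive sum at 0.68. The inducible sum was at -0.31 under scaling by trimmed means, and it turned to 0.37 (-0.37 to 1.05) in barcodes with at least 500 genes. *Hspa1a* was at -2.14 (-3.23 to -1.18) and *Hspa1b* at -2.73 (-5.12 to -0.99), or -1.44 and -2.03 relative to the median gene. *Hspb1* at -0.03 and *Dnajb1* at -0.15 had intervals covering both 0 and the median gene. *Hsp90aa1* was at -0.86 (-1.24 to -0.49), close to the median gene, and *Hspd1* at -1.32 (-1.86 to -0.80). *Hspa8* was the only member higher in IMQ by CPM, 1.59-fold (0.67, 0.53 to 0.81), or 1.37 on the log2 scale relative to the median gene. *Hsp90ab1* at -0.37 and *Hspe1* at -0.45 were lower by CPM but higher relative to the median gene (0.34 and 0.25), and they turned likewise under scaling by trimmed means or by the median of ratios. In all, 3 of 9 genes were at least 2-fold lower and 0 at least 2-fold higher by CPM, against 35.0% and 4.06% of 8036 genes, so the count of lower members was near that of genes in general.

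The Malat1-poor pools also differed in mitochondrial RNA, with a median of 3.21% of UMIs in UT and 6.24% in IMQ. At no more than 5% mitochondrial UMIs, in 1012 UT and 565 IMQ barcodes, the log2 ratio of the inducible sum was -0.62 (-1.05 to -0.21), and above 5%, in 300 and 850 barcodes, it was -1.41 (-1.96 to -0.86). *Hspa1a* and *Hspa1b* together stood at -2.28 and -2.64 in these strata, and *Hspa8* at 0.52 and 1.07, so their directions were the same on both sides of the limit. Leukocyte markers took 1657 CPM in UT and 267 CPM in IMQ Malat1-poor barcodes, and their part in the result was not tested.

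**Figure D3:**
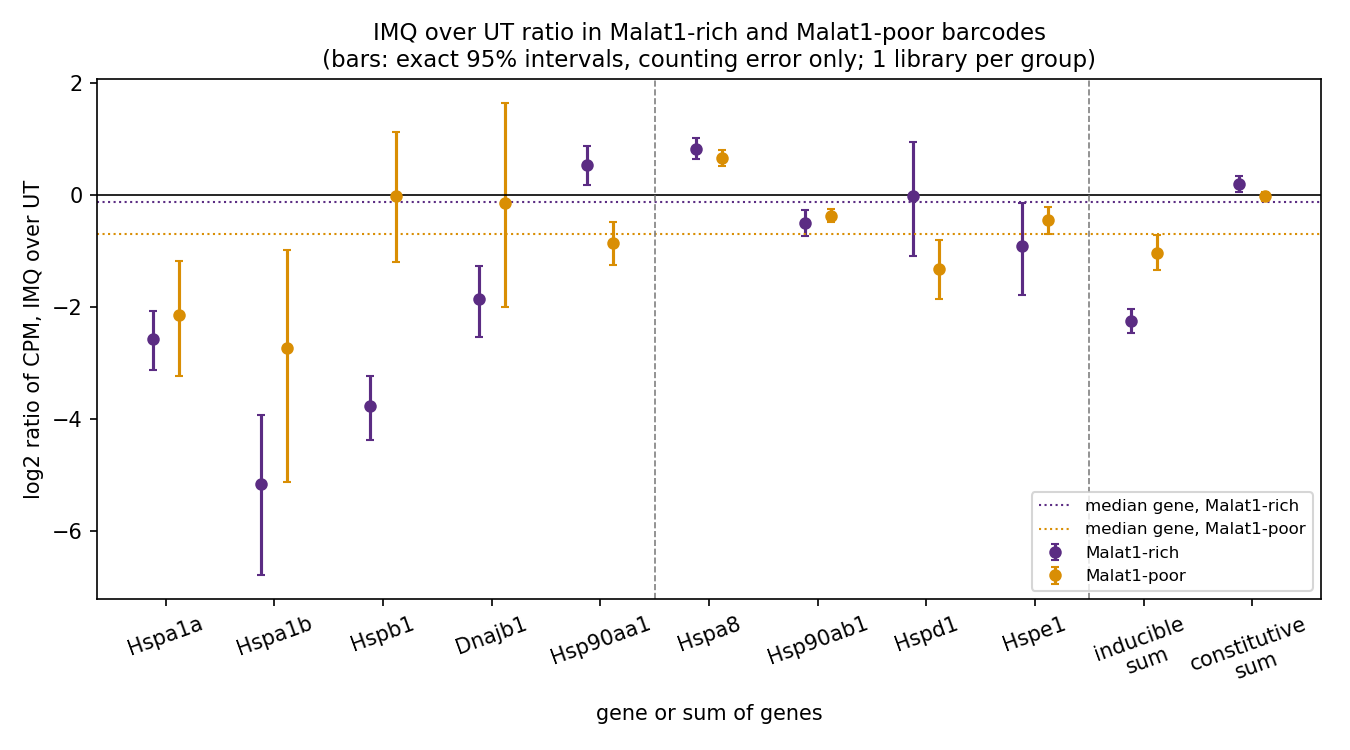
Log2 ratio of CPM, IMQ over UT, for each gene and for the inducible and constitutive sums (x axis) in Malat1-rich and Malat1-poor barcodes, with 95% intervals and dotted lines at the median gene of each pool (-0.12 and -0.70). *Hspa1a* and *Hspa1b* lie below 0 in both pools and *Hspa8* above 0 in both, whereas *Hsp90aa1* is at 0.53 in the one and -0.86 in the other.

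Barcode by barcode, the inducible genes were uneven in UT. The inducible sum per Malat1-rich barcode ran from 0 over a median of 2265 CPM to 69022 CPM in UT and from 0 over 1505 CPM to 5101 CPM in IMQ. The constitutive sum ran from 0 over 3495 CPM to 10927 CPM in UT and from 0 over 4954 CPM to 8345 CPM in IMQ, so that the highest barcodes of the libraries lay much further apart in the inducible than in the constitutive genes. More than 1% of UMIs were inducible in 6 of 39 UT and 0 of 11 IMQ barcodes. The highest value belonged to a UT barcode of 5491 UMIs with 202 *Hspa1a*, 133 *Hspa1b*, 25 *Hspb1* and 7 *Dnajb1* UMIs and neither mark. The inducible sum exceeded the constitutive sum in 14 of 39 UT and 2 of 11 IMQ barcodes. No inducible UMI was found in 4 of 39 and 2 of 11.

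*Hspa1a* and *Hspa1b* occurred together in 17 UT barcodes, of 19 with *Hspa1a* and 20 with *Hspa1b*, and in 1 IMQ barcode, of 4 and 2. The keratinocyte-marked barcodes differed in makeup from the others. In them *Hspa1a* and *Hspa1b* gave 1.11 UMIs per UMI of *Hspa8*, against 2.65 in the other UT barcodes, and *Hspb1* took 946 of the 1756 inducible UMIs in the deepest of them. The share of a barcode's UMIs from inducible chaperones went with the share from 8 immediate early genes over the 39 UT barcodes (Pearson's r 0.74, Spearman's rho 0.48). Over the 11 IMQ barcodes the values were 0.46 and 0.38. In UT 1 barcode, of 5491 UMIs, was highest in both shares, at 6.90% inducible and 7.19% immediate early UMIs. The correlation without it was not computed. These correlations are descriptions over barcodes of 1 library, which share its handling and depth.

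**Figure D4:**
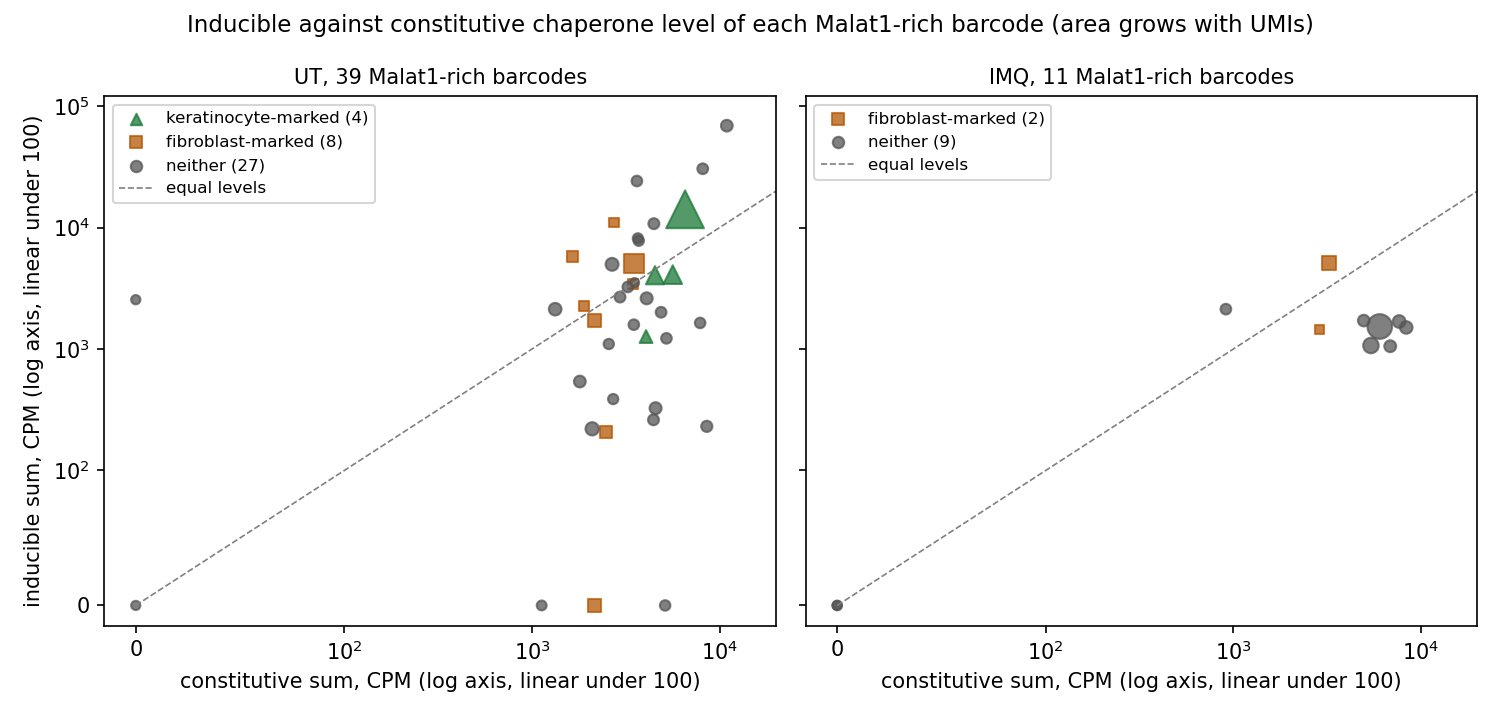
Inducible against constitutive chaperone level of each Malat1-rich barcode, both as CPM on log axes that are linear under 100, for 39 UT and 11 IMQ barcodes, with marker class by symbol and area growing with the UMIs. UT barcodes spread from 0 to 69022 CPM on the inducible axis, with 14 above the line of equal levels, while all IMQ barcodes lie at or below 5101 CPM and 2 are above the line.

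Of 12 co-chaperone and related genes known to be induced by HSF1, 4 were at least 2-fold higher and 3 at least 2-fold lower in IMQ than in UT Malat1-rich barcodes, against 16.3% and 21.9% of all genes. Their median log2 ratio was 0.17 against -0.12 for all genes. Without the keratinocyte-marked barcodes 9 had at least 10 UMIs, of which 5 were higher and 2 lower, against 16.5% and 24.8% of all genes. Their median was then 1.16 against -0.20. With all barcodes *Ubb*, which encodes ubiquitin, was at 1.32, and *Bag3*, an HSP70 nucleotide exchange factor, at 2.19 (1.39 to 3.01) on 34 and 24 UMIs. Without the marked ones they were at 1.16 and at 2.53 (1.44 to 3.77). *Bag3* was thus higher in IMQ where *Hspa1a* and *Hspb1* were lower. In Malat1-poor barcodes 0 of the 12 were 2-fold higher and 4 lower, near the 35.0% of all genes that were lower, with *Cacybp* at -1.10 and *Dnajb4* at -1.32. Within UT, 5 of the 12 were 2-fold higher and 2 lower in Malat1-rich than in Malat1-poor barcodes, near the 36.2% and 12.8% of all genes. Among genes with at least 100 UMIs these shares were 13.4% and 24.1%, and the 12 were not counted anew at that limit. The collagen chaperone gene *Serpinh1*, abundant in fibroblasts, was among the lower ones, at 546 against 1788 CPM.

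Of 16 constitutive co-chaperones, 15 had at least 10 UMIs in the Malat1-rich comparison between the libraries. Of these, 1 was 2-fold higher and 5 lower in IMQ, against 16.3% and 21.9% of all genes. *Hspa5*, the HSP70 of the endoplasmic reticulum, was at 0.04 and its HSP90 counterpart *Hsp90b1* at -1.67 (-2.51 to -0.93). Without the keratinocyte-marked barcodes 1 of 13 was higher and 3 lower, against 16.5% and 24.8% of all genes. In Malat1-poor barcodes 0 of 16 were higher and 4 lower, a smaller share than the 35.0% of all genes, with *Hsp90b1* at -1.42. None of the 7 CCT chaperonin genes matched, which fold actin and tubulin, differed 2-fold between the libraries in either pool. Of all genes 16.3% were higher and 21.9% lower in Malat1-rich barcodes, and 4.06% and 35.0% in Malat1-poor barcodes. However, *Cct4* was at 1.26 (0.23 to 2.34) without the keratinocyte-marked barcodes. The CCT medians of -0.10 and -0.22 lay at or above those of all genes. Of the 4 genes listed as small heat-shock genes besides *Hspb1*, only *Hspb8* was measurable in Malat1-rich barcodes, at 2 and 42 UMIs (-2.71, -5.80 to -0.76). Among heat-shock factors, *Hsf1* had 6 and 9 UMIs and *Hsf2* 1 and 12 in IMQ and UT Malat1-rich barcodes, too few to show a difference.

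Immediate early genes, mostly transcription factor genes switched on within minutes of a stimulus, resembled the inducible chaperones in their placing by pool. All 8 were at least 2-fold higher in Malat1-rich than in Malat1-poor barcodes of both libraries, against 36.2% of all genes in UT and 49.2% in IMQ. Their median log2 differences were 5.52 in UT and 5.08 in IMQ against 0.49 and 0.95 for all genes. Between the libraries they divided, in that *Atf3* at -2.89, *Jun* at -2.23 and *Fos* at -2.08 were lower in IMQ Malat1-rich barcodes, whereas *Junb* at 0.16 and *Dusp1* at 0.41 were not. These lower values rested largely on the keratinocyte-marked barcodes, the deepest of which carried 6205 of the 8532 immediate early UMIs of its pool, 1343 of 1476 for *Atf3*. Without them 0 of the 8 were 2-fold lower and 2 were 2-fold higher, against 24.8% and 16.5% of all genes. *Atf3* turned to 0.95, *Jun* and *Fos* stood at -0.79 and -0.90, and the median turned from -0.33 to 0.74. By likeness to the inducible sum across Malat1-rich barcodes, the only gene among the 50 most similar in both libraries was *Rps27a*, which encodes a ubiquitin and ribosomal protein fusion (Pearson's r of log-scaled levels 0.39 over 39 UT and 0.93 over 11 IMQ barcodes). The lists of 50 came from 6929 UT and 5497 IMQ genes, and an overlap of 1 gene was not compared with chance. In UT alone *Egr1* at 0.60 and *Jun* at 0.53 ranked first and second of 6929 genes, and in IMQ the same genes were at 0.13 and 0.01. *Fos* was likewise at 0.46 in UT and -0.23 in IMQ. The remaining immediate early genes went the other way, with a higher r in IMQ than in UT. *Junb* was at 0.17 in UT and 0.64 in IMQ, *Atf3* at 0.20 and 0.51, and *Ier2* at 0.26 and 0.43. *Fosb* was at 0.205 and 0.37, and *Dusp1* at 0.25 and 0.38.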

How the data were processed

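Single cells were profiled with the Chromium 3′ kit, version 3. For each library the authors deposited 1 unnormalised matrix of UMI counts, genes by barcodes, from Cell Ranger, which per the file headers was version 3.0.0 for UT and 3.1.0 for IMQ. The submitters' processing notes name the build mm10. The annotation release and the strand setting are not given in the sources used here. Of 31053 gene identifiers, 30934 were found in GENCODE M21 on GRCm38, from which gene coordinates were taken, and promoter windows came from RefSeq on GRCm38.p6. Since the study counted more IMQ cells than this matrix has barcodes, it may have used another one.

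The 9 genes, their classes and all further lists were chosen with earlier results of these data known. Barcodes with at least 200 genes were split at 10 *Malat1* UMIs. No mitochondrial limit, upper gene limit or doublet caller was applied to the main values, and the study's limits of 5% mitochondrial UMIs and 5000 genes were run as an alternative. Counts were summed per library and pool and scaled to a total of 1000000 (CPM). Sums carry exact Poisson, shares exact Clopper-Pearson and ratios exact conditional binomial intervals at 95% (scipy 1.17.1), and the ratio of inducible to constitutive a normal interval from 4 Poisson sums. They cover counting error only, since 1 library per group allows no test. Genes with at least 10 UMIs in both pools together entered counts of 2-fold differences, with a count of 0 set to 3. Shares were compared after thinning to 400 UMIs. Likeness is Pearson's r of ln(1 + UMIs per 10000) with the inducible sum, over genes seen in at least 10% of Malat1-rich barcodes. All 9 genes are named, and from each further list up to 2 genes with the most UMIs and 2 with the largest ratio were open to naming. *Serpinh1*, *Hspa5*, *Fos*, *Junb*, *Dusp1*, *Hsf1* and *Hsf2* were named in part for their role, after their values were seen. A gene of the further lists is not reported here. Scaling by trimmed means (edgeR 4.0.16) and by the median of ratios (DESeq2 1.42.0), other pool limits and other list members were tried as alternatives. The interval and ratio code was tested on simulated counts.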

Additional observations from a re-analysis of the deposited data

Results flagged for a closer look

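*Hsp90aa1* was flagged because it lay on opposite sides of 0 between the pools. Its log2 ratio of IMQ over UT was 0.53 (0.18 to 0.87) in Malat1-rich and -0.86 (-1.24 to -0.49) in Malat1-poor barcodes, where the median gene was at -0.70. The difference between the pools was not tested.

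The barcodes with fewer than 200 genes, which no main comparison of the libraries uses, were flagged for a higher level of *Hspa8* in IMQ, at 643 CPM on 743 UMIs against 147 CPM on 4 UMIs in UT (log2 ratio 2.13, 0.76 to 4.01). The constitutive sum there was at 1501 CPM in IMQ and 994 CPM in UT (0.59, 0.05 to 1.20). The median gene of these barcodes was at a log2 ratio of -2.02. The UT value rests on 64 barcodes, and the IMQ value on 3621.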

How the results depend on the processing

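With 1 library per group, no library could be left out and no spread between mice is known. No paired analysis was possible because the groups share only replicate number 1. The pools of 39 and 11 Malat1-rich barcodes limit every statement on them, and the Malat1-poor pools held 21 or fewer UMIs of *Hspa1b*, *Hspb1* or *Dnajb1* each. *Hspa1a* was lower in IMQ under all 11 settings in Malat1-rich barcodes (-4.34 to -1.48) and all 10 in Malat1-poor barcodes (-2.14 to -0.82), *Hspa1b* under all 11 and all 8 that gave a value, a set that does not hold the fibroblast-marked barcodes, where *Hspa1a* was at 0.55 (-0.13 to 1.18), and *Hspa8* was higher under all 11 (0.81 to 1.33) and all 10 (0.52 to 1.38). Other values moved as follows, and the cause was not tested. Settings by marker class and by mean over barcodes were chosen after the data had been seen.

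In Malat1-rich barcodes the log2 ratio of the inducible sum (main value -2.25) was -1.20 under the study's limits, -1.41 without the deepest barcode of each library, -1.74 without keratinocyte-marked barcodes, -1.94 as a mean over barcodes, -3.23 without *Hsp90aa1* and 0.47 in fibroblast-marked barcodes only. The constitutive sum (0.20) was 0.52 under the study's limits, 0.42 without the deepest barcodes and 0.63 without keratinocyte-marked barcodes. The inducible to constitutive ratio (-2.45) was -1.73 under the study's limits, -1.83 without the deepest barcodes, -3.43 without *Hsp90aa1* and 0.28 in fibroblast-marked barcodes. *Dnajb1* turned to 0.64 under the study's limits, 0.27 without the deepest barcodes and 1.19 without keratinocyte-marked barcodes, and *Hsp90ab1* to 0.23 in the last.

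In Malat1-poor barcodes the inducible sum (-1.03) was -0.62 under the study's limits, 0.37 at 500 or more genes, -0.68 with a total that leaves out mitochondrial, ribosomal and *Malat1* UMIs, -0.31 by trimmed means, -0.33 by the median of ratios and -1.39 without *Hsp90aa1*. The constitutive sum (-0.02) was 0.095 at 500 or more genes, 0.32 with that total, 0.69 by trimmed means, 0.68 by the median of ratios and 0.084 without *Hspd1* and *Hspe1*. The ratio of the sums was -0.58 under the study's limits, 0.28 at 500 or more genes and -1.37 without *Hsp90aa1*. *Hsp90aa1* turned to 0.66 (-0.21 to 1.45) at 500 or more genes. By trimmed means and the median of ratios *Hsp90ab1* turned to 0.35 and 0.33, and *Hspe1* to 0.26 and 0.25. *Hspa1b* gave no value under the study's limits or with a 10% mitochondrial limit, nor *Hspb1* at 500 or more genes.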

Other observations

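The deepest IMQ Malat1-rich barcode, of 48937 UMIs, was set apart from the other IMQ barcodes by *Sdc4*, *Rasd1*, *Pim1*, *Cdkn1a* and *Nfkbia* rather than by keratins, and held 75 of the 193 inducible and 295 of the 601 constitutive UMIs of its pool.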
